A study of Mus musculus with 12 samples.

Results

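The Bcl2 family decides whether the outer membrane of the mitochondrion is opened during apoptosis. Its pro-survival members (among them Bcl2, Bcl2l1, Bcl2l2 and Mcl1) hold the effectors Bax and Bak1 in check. The BH3-only members (among them Bcl2l11, also called Bim, Bbc3, also called Puma, and Pmaip1, also called Noxa) relieve that restraint. Once the membrane is open, cytochrome c leaves the mitochondrion and caspases are activated. Olfactory sensory neurons (OSNs) of the main olfactory epithelium (MOE) die and are replaced throughout life, and closing a nostril removes odor-driven activity from the epithelium behind it. The 9 genes named here were chosen by their membership of the family, and 8 of them could be followed, out of 19938 genes with a probe set of their own on the array. Bax was matched to no probe set with a single symbol and was not analysed here. Each of the 8 genes had 1 such probe set.

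RNA of the MOE was hybridised to 12 Affymetrix Mouse Gene 1.0 ST arrays, in 4 groups of 3. The groups were H2be-KO, closed side, H2be-KO, open side, WT, closed side, and WT, open side. H2be is a histone H2B variant of olfactory neurons, and in the H2be-KO allele its coding sequence is replaced by a membrane-targeted mCherry (Gap43-mCherry). All mice had unilateral naris occlusion (UNO), in which the right nostril was cauterised at 14 days of age and stayed shut for 3 weeks, so the open side is the other side of operated mice and not of unoperated ones. RNA came from MOE freed from the medial bone. The sample titles and the design text give an age of 5 weeks, while an age tag gives 6 months. The design text gives 2 mice (a female and a male) per sample, while the study's legends give another number, and a sample is the unit of replication below. Whether a closed and an open sample of the same number came from the same mice is not stated. All values are log2 expression, and a log2 difference of 1 is a doubling.

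Promoter sequences of Bcl2l11 and Bbc3 are shown because the forkhead (FOXO) factors that are known to drive both genes bind the letters GTAAACA. Of the promoters listed for the 9 genes, these are the ones that hold them. The sequences are the 250 bases before a RefSeq start (GRCm38.p6, plus strand), with GTAAACA or its reverse complement in capitals. They lie at chr2:128125788-128126037 for Bcl2l11 and at chr7:16310011-16310260 for Bbc3. The Bbc3 start used lies inside the gene, which begins at chr7:16308398.
Bcl2l11: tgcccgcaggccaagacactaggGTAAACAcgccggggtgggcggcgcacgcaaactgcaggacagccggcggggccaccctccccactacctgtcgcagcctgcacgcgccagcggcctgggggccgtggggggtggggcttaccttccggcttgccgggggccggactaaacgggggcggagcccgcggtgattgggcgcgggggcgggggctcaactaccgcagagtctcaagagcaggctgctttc
Bbc3: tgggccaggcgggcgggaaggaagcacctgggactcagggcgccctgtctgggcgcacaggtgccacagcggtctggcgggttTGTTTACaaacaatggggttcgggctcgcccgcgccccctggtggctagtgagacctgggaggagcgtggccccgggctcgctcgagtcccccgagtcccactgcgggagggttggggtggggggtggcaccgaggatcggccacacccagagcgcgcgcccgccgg
The RefSeq table held 13 promoters for 8 of the 9 genes, Bax included and Pmaip1 not. GTAAACA on either strand was found in 2 of the 13 (Bcl2l11 has 2 promoters listed and Bbc3 has 3) and in 3.17% of all 32851 promoters of the same length. It begins 227 bases before the start in Bcl2l11 and 167 bases before the start inside the gene in Bbc3. The CRE letters TGACGTCA were found in none of the 13, against 1.55% of all promoters. The E2F letters TTTCCCGC, TTTGGCGC, TTTCGCGC and TTTGCCGC were searched together and found in 1 promoter, of Bcl2l1, against 1.86% of all promoters. The motifs were picked after the values were seen, and a match is a string of letters and no evidence of binding.

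The arrays were alike in scale, with medians between 7.21 and 7.30, and no array repeated another. Correlations over all probe sets were 0.972 to 0.985 within groups and 0.968 to 0.984 between groups. H2be itself (H2bc21) read 11.41 to 11.46 on KO closed arrays, against 11.68 to 11.75 on WT closed arrays, and 11.31 to 11.33 on KO open arrays, against 11.55 to 11.62 on WT open arrays. Every KO array lay below every WT array of its side, but the average log2 difference was only -0.27 (adjusted p = 0.336 in limma), and whether the probes lie in the replaced part is not given in the sources used here. The tissue labels matched the markers, since the OSN marker Omp read 12.53 to 12.71 on all arrays and the sustentacular marker Cyp2g1 read 12.35 to 12.52.

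Bcl2l11, a BH3-only protein that can bind every pro-survival member, was the 1 gene of the 8 that passed the test between the sides. It was lower on the closed side. Of all 32615 probe sets 2.9% passed in this comparison, and 1.23% passed as lower. In KO mice the 3 closed arrays read 7.42, 7.03 and 7.31, against 7.61, 7.46 and 7.75 on the 3 open arrays. In WT mice the closed arrays read 7.30, 6.96 and 7.27, against 7.62, 7.69 and 7.77 on the open arrays. All 6 closed arrays lay below all 6 open arrays, as in 1.59% of probe sets, with the closest values 7.42 on a KO closed array and 7.46 on a KO open array. On average over the genotypes Bcl2l11 fell by 0.43 ± 0.091 (SE) on the log2 scale, a percent change of -26.0% (95% interval -35.6% to -15.1%), and this difference passed the threshold (adjusted p = 0.0253). Within a genotype the differences were -0.35 ± 0.13 (SE) in KO mice and -0.52 ± 0.13 in WT mice, and neither passed (adjusted p = 0.331 and 0.119). The difference between these, 0.17 (95% interval -0.23 to 0.56), did not pass either.

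**Figure D1:**
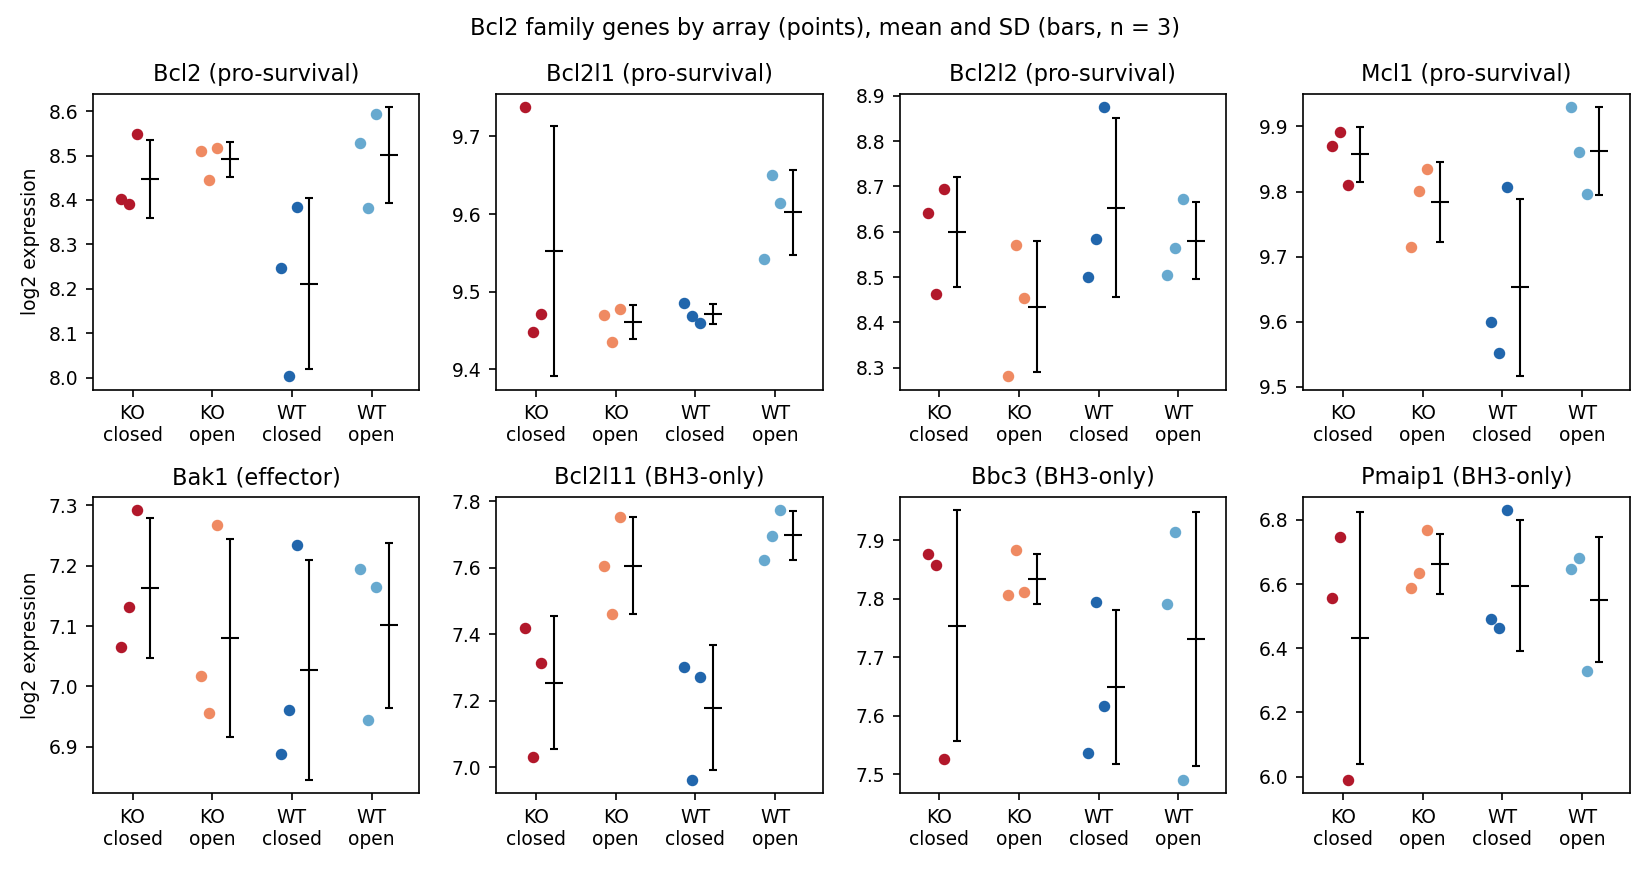
Log2 expression (vertical axes) of the 8 genes in the 4 groups (horizontal axes). Points are arrays, and bars are the mean and SD of 3 arrays. Bcl2l11 is the gene in which the closed groups stay below the open groups in both genotypes, between 6.96 and 7.42 against 7.46 and 7.77.

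The Bcl2l11 call rested on all arrays together. It was kept in 5 of 12 fits that left out 1 array. It was lost without KO closed 2 or 3, KO open 1 or 3, WT closed 2, or WT open 2 or 3, with log2 differences of -0.48 to -0.38 and adjusted p between 0.0273 and 0.0715 over the 12 fits. In bulk RNA, fewer cells of a type and less RNA per cell cannot be told apart.

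Markers of immature OSNs fell along with Bcl2l11. The mean log2 level of the 12 markers was 9.88 to 9.98 on KO closed arrays, against 10.11 to 10.18 on KO open arrays, and 9.87 to 9.98 on WT closed arrays, against 10.15 to 10.19 on WT open arrays. On average over the genotypes 8 of the 12 were called lower, with a list median of -0.27, and Gap43 was among them (log2 difference -0.28, adjusted p = 0.0241). The difference was positive in 2 of the 12. Of 12 mature OSN markers, 8 were called higher and 1 lower, with a list median of 0.26. The other 3 were not called, Omp among them (log2 difference 0.026, adjusted p = 0.910). None of the sustentacular (7 tested), immune (12), cell division (7), respiratory ciliated (8), erythroid (2) and stromal and endothelial (8) markers passed. Their list medians, in that order, were -0.043, 0.076, -0.11, 0.22, 0.30 and 0.12. Of 7 basal and progenitor markers 1 was called lower, with a list median of -0.12. The part of any of these cell types in the Bcl2l11 difference, or in the Hrk and E2f1 differences given below, was not tested.

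Over the 12 arrays, the 2 genes whose values followed those of Bcl2l11 most closely among 19390 genes were Plppr3 (Pearson r = 0.97) and Rcan1 (r = 0.95). These are descriptions, since the 12 points fall into a closed and an open group. Plppr3 had a log2 difference of -0.29 between the sides (adjusted p = 0.0244), and Rcan1 one of -0.23 (adjusted p = 0.108). Both genes were picked by their likeness to Bcl2l11 on these same arrays, so their side differences are no independent result. For the other 7 genes the nearest correlation was between 0.87 and 0.93 (Mcl1 with Olfr225, 0.93, Bcl2l1 with Scaf1, 0.92).

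None of the 4 pro-survival genes passed the test between the sides. Bcl2, which guards the mitochondrial membrane in neurons, read 8.40, 8.39 and 8.55 on KO closed arrays, against 8.51, 8.45 and 8.52 on KO open arrays, and 8.25, 8.004 and 8.38 on WT closed arrays, against 8.53, 8.38 and 8.59 on WT open arrays. The WT groups met at 8.38, and the KO groups overlapped. Its log2 difference was -0.045 (95% interval -0.28 to 0.19) in KO mice and -0.29 (-0.52 to -0.055) in WT mice, with adjusted p = 0.945 and 0.382.

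Mcl1, a short-lived pro-survival protein, read 9.87, 9.89 and 9.81 on KO closed arrays, against 9.72, 9.80 and 9.83 on KO open arrays, and 9.60, 9.55 and 9.81 on WT closed arrays, against 9.93, 9.86 and 9.80 on WT open arrays. WT closed 1 and 2 were the lowest of all 12 arrays, and WT closed 3 lay among the open arrays. The log2 difference was 0.074 (95% interval -0.12 to 0.27) in KO mice and -0.21 (-0.41 to -0.012) in WT mice, with adjusted p = 0.868 and 0.493.

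Bcl2l1 (Bcl-xL), the other main pro-survival protein of neurons, read 9.74, 9.45 and 9.47 on KO closed arrays, against 9.47, 9.44 and 9.48 on KO open arrays. KO closed 1 stood alone above the rest, and without it the KO log2 difference was -0.0015 in place of 0.091. In WT mice the closed arrays read 9.49, 9.47 and 9.46, all below the open arrays at 9.54, 9.65 and 9.61, with a log2 difference of -0.13 (95% interval -0.33 to 0.068, adjusted p = 0.768). Bcl2l2 (Bcl-w) ranged from 8.46 to 8.69 on KO closed arrays, against 8.28 to 8.57 on KO open arrays, and from 8.50 to 8.88 on WT closed arrays, against 8.50 to 8.67 on WT open arrays. Its average log2 difference was 0.12 (95% interval -0.066 to 0.30).

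Neither the effector Bak1 nor the BH3-only genes Bbc3 and Pmaip1 passed the test between the sides. Hrk, a BH3-only gene outside the set followed here, did pass and is described below. Bak1, which forms the pore itself, ranged from 7.07 to 7.29 on KO closed arrays, against 6.96 to 7.27 on KO open arrays, and from 6.89 to 7.23 on WT closed arrays, against 6.94 to 7.19 on WT open arrays. Its groups overlapped in both genotypes, and the average log2 difference was 0.0045 (95% interval -0.19 to 0.20). Bbc3, a p53 target, ranged from 7.53 to 7.88 on KO closed arrays, against 7.81 to 7.88 on KO open arrays, and from 7.54 to 7.79 on WT closed arrays, against 7.49 to 7.91 on WT open arrays, with an average log2 difference of -0.081 (-0.28 to 0.12).

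Pmaip1, a partner of Mcl1, ranged from 5.99 to 6.75 on KO closed arrays, against 6.59 to 6.77 on KO open arrays, and from 6.46 to 6.83 on WT closed arrays, against 6.33 to 6.68 on WT open arrays. It varied most within groups of the 8 genes, with a pooled SD of 0.25, against 0.085 in Mcl1 and a median of 0.17 over all probe sets. The lowest value, 5.99, was that of KO closed 3, and the KO log2 difference was -0.23 with it and -0.011 without it. The average log2 difference was -0.094 (95% interval -0.37 to 0.19).

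**Figure D2:**
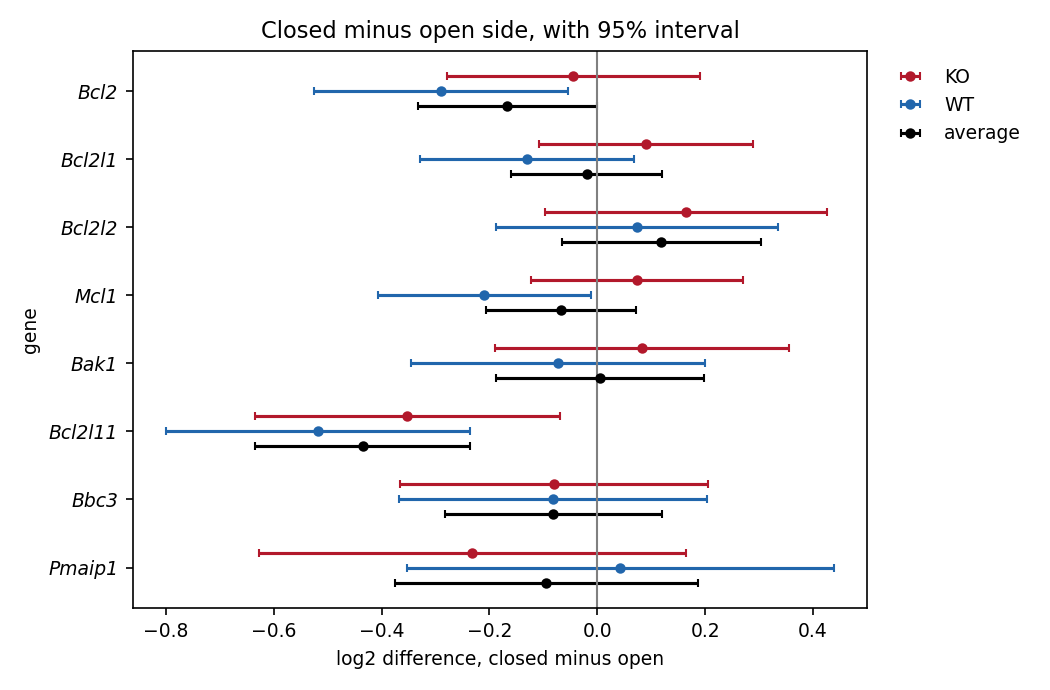
Log2 difference, closed minus open side (horizontal axis), of each gene (vertical axis) in KO mice, in WT mice and on average, with 95% intervals from limma. Bcl2l11 lies lowest in each set, at -0.35, -0.52 and -0.43, and the average differences of the other 7 genes lie between -0.17 and 0.12.

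The counts of called genes were set beside those of all probe sets. On average over the genotypes 1 of the 8 genes was called, where 2.9% of 32615 probe sets were called and 1.23% were called lower. Without adjustment 2 genes, Bcl2 and Bcl2l11, were lower at a p under 0.05, against 5.79% of probe sets. Bcl2l11 was also the 1 gene whose 6 closed arrays lay below its 6 open arrays, as did 1.59% of probe sets. The median log2 difference of the 8 genes was -0.075, and that of all probe sets was 0.0027.

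In KO mice alone limma called none of the 8 genes, where 1.05% of probe sets were called. Bcl2l11 was lower without adjustment, against 3.68% of probe sets, and its groups did not overlap, as in 6.71% of probe sets. In WT mice alone none was called, where 0.855% of probe sets were called. Bcl2, Mcl1 and Bcl2l11 were lower without adjustment, against 5.17% of probe sets. The WT groups of Bcl2l1 and Bcl2l11 did not overlap, as in 7.05% of probe sets.

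No gene of the family passed the test between KO and WT mice. On the closed side none was called, where 0.0245% of probe sets were called. Bcl2 read 8.39 to 8.55 on KO closed arrays, against 8.004 to 8.38 on WT closed arrays (log2 difference 0.24, 95% interval 0.00040 to 0.47, adjusted p = 0.999), and Mcl1 read 9.81 to 9.89 on KO closed arrays, against 9.55 to 9.81 on WT closed arrays (0.20, 0.0076 to 0.40, adjusted p = 0.999). Both were higher in KO mice at an unadjusted p under 0.05, as were 2.02% of probe sets, and their groups did not overlap, as in 4.23% of probe sets. The median of the 8 genes was 0.093, against -0.0016 for all probe sets.

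On the open side limma called none of the 8 genes, where 0.0215% of probe sets were called, and none had an unadjusted p under 0.05. Bcl2l1 was the 1 gene whose groups did not overlap, with 9.44 to 9.48 on KO open arrays, against 9.54 to 9.65 on WT open arrays (log2 difference -0.14, 95% interval -0.34 to 0.058), and 8.39% of probe sets were separated in the same direction. Bcl2l11 differed by 0.075 (-0.21 to 0.36) on the closed side and by -0.091 (-0.37 to 0.19) on the open side. Averaged over the sides none was called and none had an unadjusted p under 0.05, where 0.0276% of probe sets were called, and the differences lay between -0.0996 (Bcl2l2) and 0.11 (Bcl2).

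**Figure D3:**
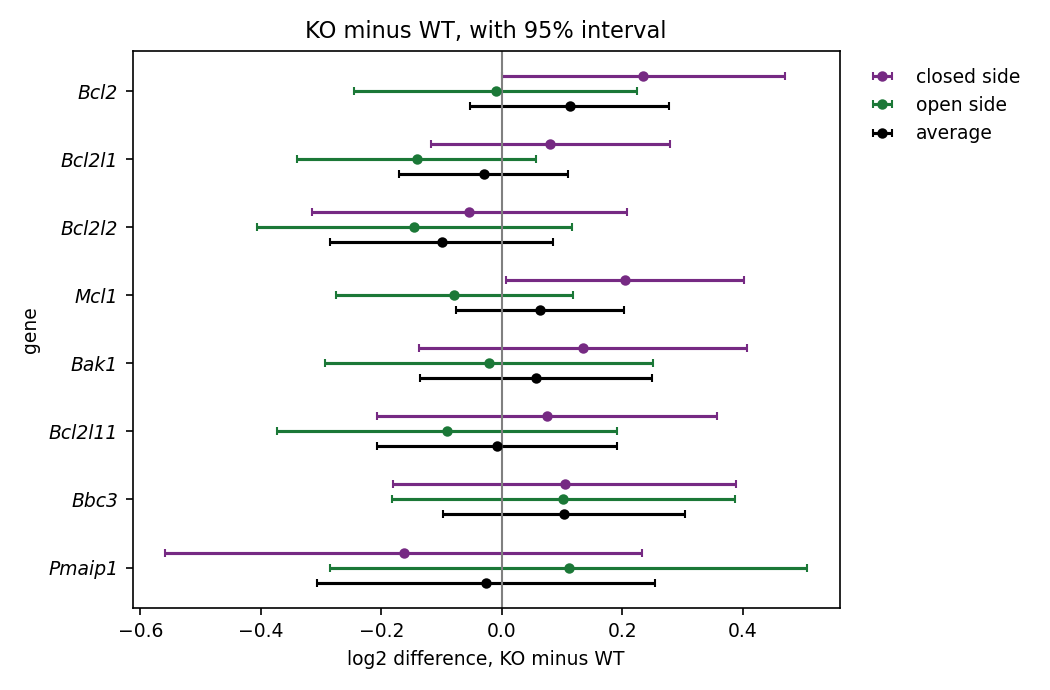
Log2 difference, KO minus WT (horizontal axis), of each gene (vertical axis) on the closed side, on the open side and on average, with 95% intervals from limma. The intervals of Bcl2 and Mcl1 on the closed side start at 0.00040 and 0.0076, and all other intervals cross 0.

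When the side difference of KO mice was set against that of WT mice, limma called none of the 8 genes, and 0% of all probe sets. Mcl1 alone had an unadjusted p under 0.05, with a log2 difference of 0.28 (95% interval 0.0045 to 0.56, adjusted p = 1.00), against 2.87% of probe sets that were higher. This value sets 0.074 in KO mice against -0.21 in WT mice.

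Around the family, 76 of 85 listed genes of the apoptotic pathway were tested, in 7 lists. On average over the genotypes 2 of the 76 were called higher on the closed side, and none was called lower. Without adjustment 4 were higher and 5 lower at a p under 0.05, where 13.2% of all probe sets had such a p in either direction. Among all 32615 probe sets 2.9% were called in that comparison, 1.66% as higher, so the share of the lists was near the background. Hrk, a BH3-only gene that binds Bcl2 and Bcl2l1 and is known from neurons deprived of growth factor, read 9.43, 9.15 and 9.27 on KO closed arrays, against 8.93, 8.98 and 8.95 on KO open arrays, and 9.18, 9.21 and 9.21 on WT closed arrays, against 8.96, 9.04 and 8.91 on WT open arrays. All 6 closed arrays lay above all 6 open arrays, as in 2.12% of probe sets, opposite in direction to Bcl2l11. The log2 difference was 0.28 ± 0.062 (SE), or 21.5% (95% interval 10.5% to 33.5%, adjusted p = 0.0334). The Hrk call was kept without KO closed 2 or WT open 2 and lost without any other array, with adjusted p up to 0.0961.

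E2f1, a cell cycle factor that can raise BH3-only genes, read 6.96, 6.68 and 7.09 on KO closed arrays, against 6.28, 6.35 and 6.05 on KO open arrays, and 7.03, 6.86 and 6.96 on WT closed arrays, against 6.19, 6.33 and 6.27 on WT open arrays. All 6 closed arrays lay above all 6 open arrays, as for Hrk. The log2 difference was 0.69 ± 0.084 (SE), or 60.8% (adjusted p = 0.00085), and 0.69 in each genotype (adjusted p = 0.0204 in KO and 0.0215 in WT). The average call held without each array, while the calls within a genotype were lost in 4 KO and 5 WT fits of 12. Both were also lost when only the groups compared were fitted (adjusted p = 0.127 in KO and 0.0916 in WT).

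**Figure D4:**
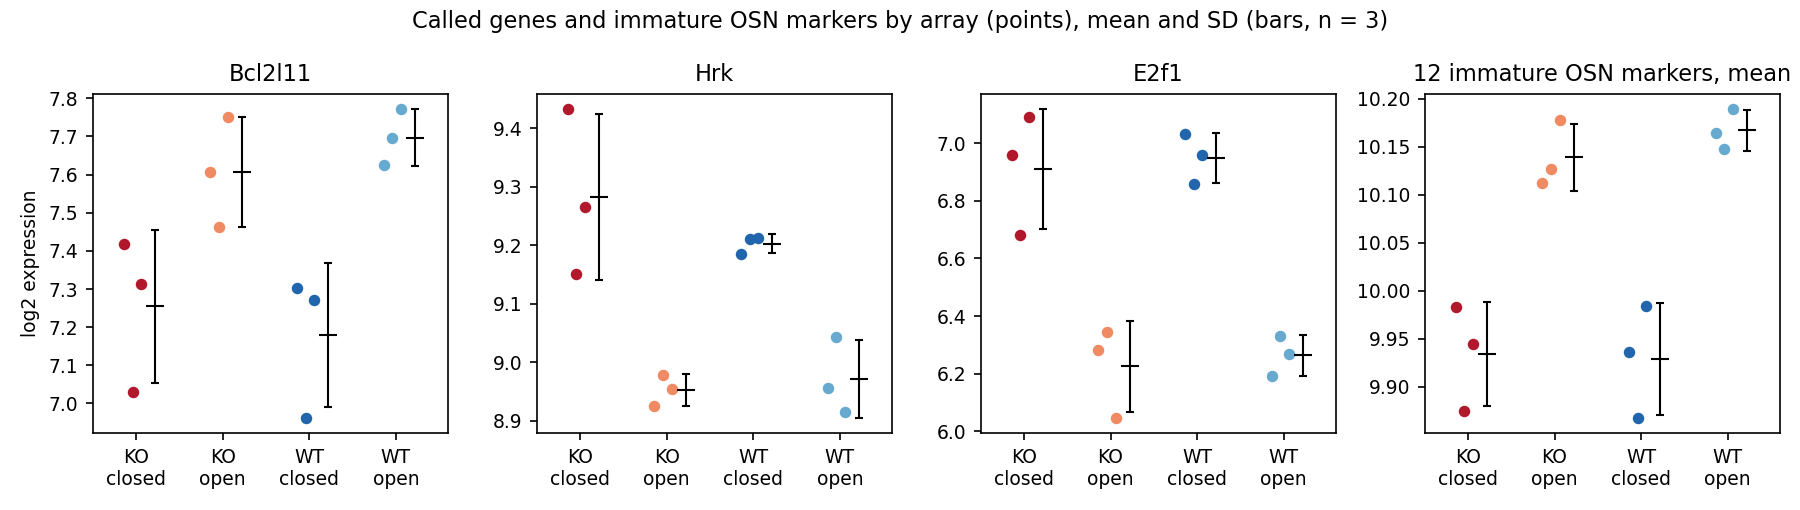
Log2 expression (vertical axes) of Bcl2l11, Hrk, E2f1 and the mean of the 12 immature OSN markers in the 4 groups (horizontal axes). Points are arrays and bars the mean and SD of 3 arrays. Hrk and E2f1 lie higher on the closed side, and Bcl2l11 and the markers lie lower.

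Of 11 further BH3-only and Bcl2-like genes the other 10 were not called. Bok (log2 difference 0.15) was named by the size of both its side and its KO difference. Bcl2l13 (-0.12) was named by the size of its KO difference. None of 14 caspase and apoptosome genes was called between the sides, and 1 had an unadjusted p under 0.05, as had 13.2% of all probe sets. Casp6, an executioner caspase, differed by 0.15 (adjusted p = 0.357) and Casp9, the initiator of the apoptosome, by -0.16 (adjusted p = 0.600). Among 11 inhibitors of apoptosis and related genes such as Xaf1, Cflar, which blocks caspase 8, lay closest to the threshold. It read 9.47 to 9.54 on KO closed arrays, against 9.71 to 9.75 on KO open arrays, and 9.46 to 9.64 on WT closed arrays, against 9.77 to 9.87 on WT open arrays (log2 difference -0.24, adjusted p = 0.0503). Birc7 differed by -0.14 (adjusted p = 0.847).

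The other 14 upstream regulators were not called. Mapk10, the JNK kinase of neurons, differed by -0.22 (adjusted p = 0.0628). None of 12 death receptor and adaptor genes was called, with Tnfsf10 at 0.22 (adjusted p = 0.769) and Tnfrsf10b at 0.12 (adjusted p = 0.830). None of 12 mitochondrial membrane genes was called either, with Vdac1 at -0.12 (adjusted p = 0.321) and Bag1 at 0.14 (adjusted p = 0.510). Bcl2l10, the 1 other anti-apoptotic relative tested, had a difference of -0.26 (95% interval -0.75 to 0.23). The median difference of the 76 genes was 0.014, against 0.0027 for all probe sets.

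Between KO and WT mice none of the 76 genes was called on either side or on average, and none in the difference between the genotypes. On average 5 were higher and 2 lower at an unadjusted p under 0.05, where 2.12% of all probe sets were higher and 4.68% lower. The 2 genes with the largest average KO differences in each list, or the 1 gene tested, were as follows. Those higher were Bcl2l13 (0.21), Birc7 (0.21), Bok (0.19), Diablo (0.18), Jun (0.17) and Atf4 (0.17). Those lower were Bcl2l10 (-0.33), Tnfsf10 (-0.31), Tnfrsf1b (-0.28), Xaf1 (-0.24), Bag4 (-0.23), Htra2 (-0.19) and Bag1 (-0.19). Bcl2l10 (means 5.28 in KO and 5.61 in WT) and Birc7 (5.49 and 5.28) lay near the filter of 5. The Bcl2l10 difference was 0.024 on the open side and -0.68 on the closed side, where KO closed 1 read 4.21.

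**Figure D5:**
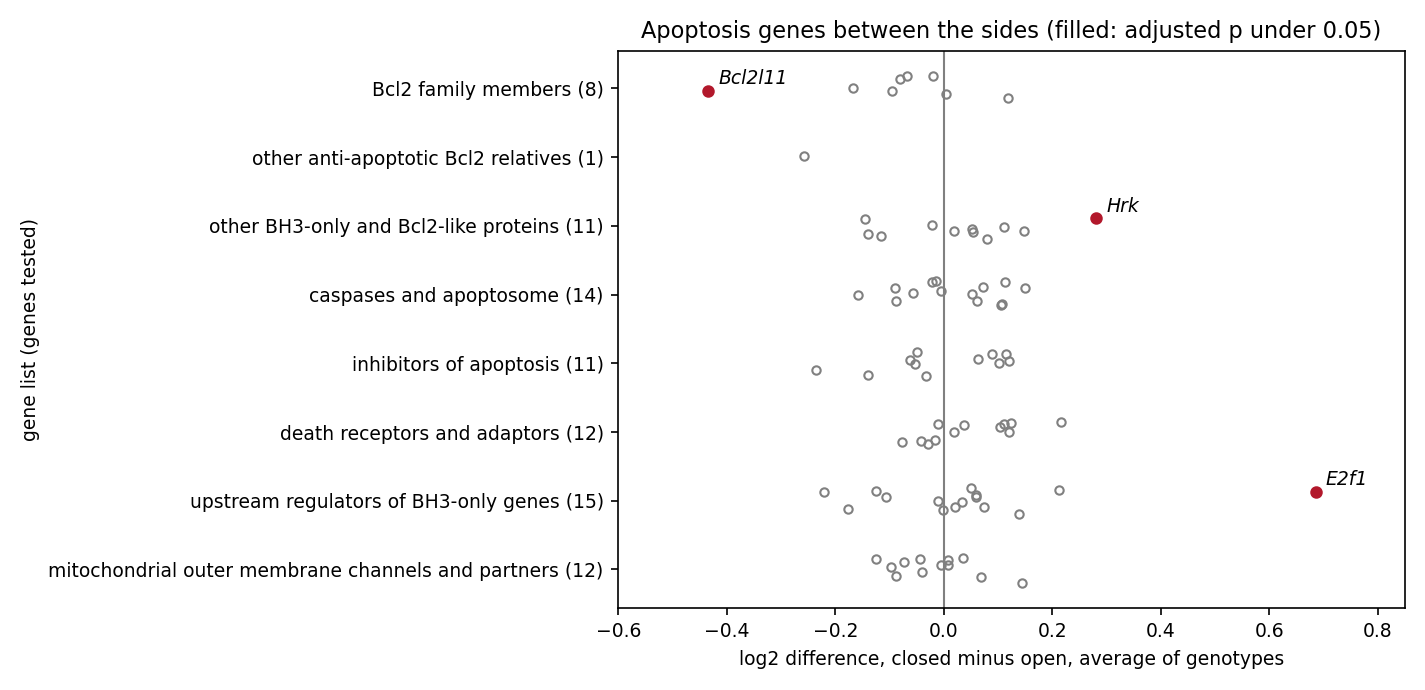
Log2 difference, closed minus open side, averaged over genotypes (horizontal axis), of the 8 family genes and of 76 genes in 7 lists (vertical axis, number tested in brackets, points spread vertically for clarity). Filled points passed the threshold: Bcl2l11 at -0.43, Hrk at 0.28 and E2f1 at 0.69.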

How the data were processed

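The authors used the Affymetrix Expression Console, with sketch-quantile normalization and IterPLIER summaries, and deposited 1 log2 value per probe set for each of 12 arrays. Probe sets were named from the platform annotation, with 21789 of 35556 carrying 1 symbol, and older symbols were updated through RefSeq. For each gene the single-symbol probe set with the highest mean was used. The filter kept 32615 probe sets with a mean log2 above 5 and left out 2941. Group means were fitted in limma 3.58.1 (R 4.3.3) with lmFit and eBayes. Tests were two-sided with Benjamini-Hochberg adjustment over all probe sets and a threshold of 0.05. A gene is called when it passes that threshold. Precision is limited by 3 arrays per group. Each p-value sets a difference against the spread between samples within groups. That spread was pooled over all 4 groups and moderated across probe sets by eBayes. The members, the lists and the genes to name (all members, called pathway genes and, in each list, the 2 with the largest average difference in each contrast) were chosen with earlier results of these data known. Alternatives changed the filter, normalization, model, block and arrays. Plots and promoter searches used Python 3.11.15, with matplotlib 3.10.9 for the plots.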

Additional observations from a re-analysis of the deposited data

How the results depend on the processing

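The Bcl2l11 side difference kept its direction and its call in the 6 alternatives that changed the filter, normalization, model or replicate block (log2 -0.44 to -0.43, adjusted p 0.0056 to 0.0417), and above a mean log2 of 7 it was also called in WT mice (1 gene called, adjusted p = 0.0355). E2f1 and Pmaip1 had a mean log2 below 7 and were absent from that fit. Since each gene had 1 probe set, averaging probe sets changed nothing. Probe sets called between the sides numbered 341 in KO mice, 588 with a trended, robust fit, 116 with only the groups compared and 116 with the replicate block. In WT mice they numbered 279, 487 above a mean log2 of 7, 523 with the trended, robust fit, 36 with only the groups compared and 97 with the block. Between KO and WT they numbered 8 on the closed side, 3 with only the groups compared and 3 with the block, 7 on the open side, 12 with the trended, robust fit, 4 with only the groups compared and 0 with the block, and 9 on average, 14 above a mean log2 of 7 and 24 with the trended, robust fit. Same-numbered samples of KO and WT or of the sides correlated at -0.0090 to 0.23 in their deviations, not above 0.1 in every pair, so the numbers were not taken as pairs. Every sample correlated best with its own number between the open groups, and not in the other pairs of groups. With the block Hrk lost its average call (adjusted p = 0.0957) and E2f1 its calls within a genotype (0.135 in KO, 0.144 in WT), and no other call of these genes changed. With only the groups compared E2f1 had 0.127 in KO and 0.0916 in WT, and with the trended, robust fit Hrk was called in KO mice (0.0411).

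Without 1 array, probe sets called ranged from 129 to 312 in KO, 95 to 223 in WT and 590 to 819 on average (945 with all arrays), and from 0 to 1 for the genotype by side difference. Family genes called on average ranged from 0 to 1. None of the sign changes below concerned a call. Quantile normalization and median centring turned the sign of the average side difference of Bak1 (-0.0047 and -0.00060), of the open side KO difference of Bcl2 (0.0095 and 0.041) and Bak1 (0.037 and 0.030), of the average KO difference of Bcl2l11 (0.016 and 0.022) and Pmaip1 (0.013 and 0.0034), and of the genotype by side difference of Bbc3 (-0.031 and -0.041). Without 1 array the sign varied for the following. In KO mice the side difference ranged from -0.0015 to 0.14 for Bcl2l1 and from -0.14 to 0.033 for Bbc3. In WT mice it ranged from -0.037 to 0.15 for Bcl2l2, from -0.20 to 0.0086 for Bbc3 and from -0.075 to 0.11 for Pmaip1. On average it ranged from -0.066 to 0.0064 for Bcl2l1, from -0.047 to 0.051 for Bak1 and from -0.17 to 0.016 for Pmaip1. The KO difference on the closed side ranged from -0.012 to 0.13 for Bcl2l1, from -0.13 to 0.057 for Bcl2l2, from -0.033 to 0.19 for Bcl2l11 and from -0.32 to 0.057 for Pmaip1. On the open side it ranged from -0.069 to 0.036 for Bcl2, from -0.11 to 0.041 for Bak1, from -0.018 to 0.19 for Bbc3 and from -0.00064 to 0.18 for Pmaip1. On average it ranged from -0.062 to 0.048 for Bcl2l11 and from -0.10 to 0.084 for Pmaip1. The genotype by side difference ranged from -0.089 to 0.12 for Bbc3. The cause was not tested.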
